A study of Mus musculus with 33 samples.

Results

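Undifferentiated mouse embryonic stem cells (mESCs) that lack either of 2 related DNA repair enzymes were pooled and compared with control mESCs. The mutant group holds the 6 libraries labelled as mESCs with a Neil1 or a Neil2 knockout, 3 clones of each, and the control group holds 3 wild-type clones; these are 9 of the 33 samples of the series. All 9 were made in the E14TG2a line and grown in serum with leukemia inhibitory factor (LIF), the cytokine that keeps such cells undifferentiated. Mutant clones had received Cas9 with guide RNAs against Neil1 or Neil2, and control clones the same Cas9 plasmid without a guide. Every clone went through transient puromycin selection and was grown from a picked colony. Control clones were #1, #4 and #7, Neil1 clones were #7, #9 and #11, and Neil2 clones were #1, #11 and #14. Each clone gave 1 mESC library, so the spread within a group is the spread between clones. Members were chosen by label alone. Counts were compared on the 19 autosomes because the mESC library of Neil1 #11 had almost no counts on most of chromosome X.

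NEIL1 and NEIL2 are DNA glycosylases, enzymes that begin base excision repair (BER) by cutting a damaged, mostly oxidised, base out of DNA. They also cut the sugar backbone at the emptied position, after which polynucleotide kinase, a polymerase and a ligase close the gap. NEIL3 is the third member of the family, and OGG1, NTHL1, MUTYH, UNG and TDG are glycosylases with other preferences. In mESCs the series asks whether losing NEIL1 or NEIL2 changes the cells before they differentiate, as a base line for embryoid bodies (EBs), aggregates in which the cells differentiate, and for EBs given retinoic acid (EBs + RA), which favours neural fates.

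The guides show where each gene was cut, and each matched the mouse genome NCBIM37 exactly at 1 place, on the minus strand. They are printed 5′ to 3′ with the PAM, the bases that Cas9 needs beside its target, in capitals.
Neil1 guide 1: gggaggaacaggtttgtaagTGG
Neil1 guide 2: gatgtcaggatccttccagcTGG
Neil2 guide 1: gctgtgtggttaaggctgagGGG
Neil2 guide 2: gctgtgaagaatgtctgaaaAGG
The Neil1 guides, with their PAM, lie at chr9:56995164-56995186 and chr9:56994580-56994602, and the stretch between their cut sites is 584 bases long. It takes in all 180 bases of exon 2 of the longer annotated Neil1 transcript, of which 157 are coding, and 256 of the 434 bases of exon 1 of the shorter one. The Neil2 guides lie at chr14:63810931-63810953 and chr14:63810344-63810366. The 587 bases between their cut sites hold all 154 bases of exon 2 in each of the 3 annotated coding transcripts of Neil2, 138 of them coding. Counts per gene cannot show whether a single exon is gone.

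The 9 libraries held 24836041 to 32503071 counts on genes, and 15280 autosomal genes had enough counts to be tested. Reads that aligned to more than 1 place, which the counting sets aside, made up 17.1% to 19.9% of the reads in control clones and 16.4% to 17.3% in mutant clones (two-sided exact permutation test, p = 0.0357, 84 ways). Chromosome X took 3.23% to 3.33% of the counts in control clones, 3.77% to 4.58% in 5 mutant clones and 0.944% in Neil1 #11. Later libraries of Neil1 #11 had 4.39% in EBs and 3.27% in EBs + RA, so the low share was not found at every stage. Chromosome Y had 0% of the counts in the mESC library of Neil1 #11, against 0.0198% to 0.0274% in the other mESC clones. Its share in the later libraries of Neil1 #11 was 0.033% in EBs and 0.022% in EBs + RA. On chromosome 9 the median gene of Neil1 #11 lay at −0.29 (log2, against the control mean), while the other 170 medians of an autosome in a clone ran from −0.09 to 0.14. The part of these shares in the results was not tested. Without the genes of chromosome 9, 817 genes were called in place of the 856 described below. Mitochondrial genes had 0 counts in every library.

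Control clone #7 stood apart from the other control clones. Over the genes tested, the root mean square difference in log2 CPM (counts scaled by library size after TMM normalisation) was 0.331 between controls #1 and #4, but 0.663 and 0.634 between #7 and each of them. Differences between a control and a mutant clone ran from 0.482 to 0.768 with a median of 0.589, and those between Neil1 and Neil2 clones from 0.321 to 0.668 with a median of 0.504. The 6 pairs within a mutant gene ran from 0.387 to 0.542. The spread between control clones thus reached into the range between groups, and counts below are therefore also given without clone #7, the lists together after the last of them.

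**Figure D1:**
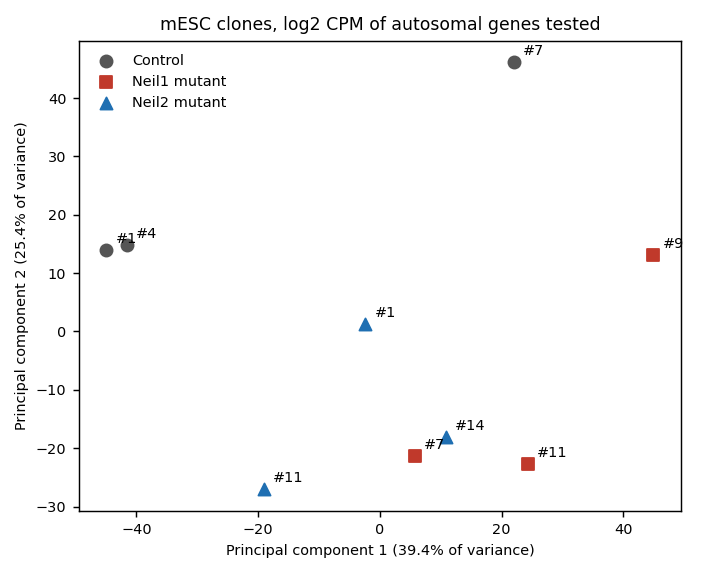
The 9 mESC clones on the first and second principal components of log2 CPM over the 15280 autosomal genes tested, which hold 39.4% and 25.4% of the variance; each point is 1 clone with its number. Controls #1 and #4 sit together on the left, and control #7 lies far from them at the top. On the first component Neil1 clones lie at 5.78 to 44.9, Neil2 clones at −19.0 to 10.8 and control #7 at 22.0.

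All clones carried the markers of the labelled cell type. The 10 mESC markers summed to 7239 to 8626 CPM in control clones and to 7026 to 8942 CPM in mutant clones, and none of the 10 was called. Pou5f1 (Oct4), a core regulator of pluripotency, had 888, 886 and 906 CPM in the control clones and 802, 1005 and 1129 CPM (lowest, median and highest) in the mutant clones. Its log2 fold change was 0.15 (SE 0.11, FDR 0.484). Nanog had 685, 719 and 840 CPM in the control clones against 683, 803 and 852 CPM in the mutant clones, a log2 fold change of 0.08 (SE 0.11, FDR 0.715). For Klf4 the log2 fold change was 0.07 (SE 0.18, FDR 0.875). The groups overlapped for all 3 genes.

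The targeted genes were expressed at low levels. Neil1 (ENSMUSG00000032298, chr9:56990607-56995929) had 9.87, 9.65 and 7.75 CPM in the control clones. The Neil1 clones #7, #9 and #11 had 31.4, 2.53 and 7.22 CPM, and the Neil2 clones #1, #11 and #14 had 11.9, 13.4 and 11.4 CPM. The highest and the lowest level of the whole set were thus both in Neil1 clones. Neil2 (ENSMUSG00000035121, chr14:63801280-63812378) had 15.2, 13.4 and 5.83 CPM in the control clones. The Neil1 clones had 8.80, 3.77 and 7.19 CPM, and the Neil2 clones 5.49, 9.50 and 6.36 CPM. Every mutant clone, of either gene, was below controls #1 and #4, but control #7 lay within the range of the mutant clones. Pooled over the 6 clones, Neil1 had a log2 fold change of 0.51 (SE 0.52, FDR 0.624) and Neil2 of −0.74 (SE 0.31, FDR 0.202, and 0.0321 without control #7). Two-sided exact permutation tests gave p = 0.714 for Neil1 and p = 0.143 for Neil2, where the smallest possible p is 0.0238. Neil3 had 14.0, 14.7 and 9.11 CPM in the control clones and 12.2, 14.3 and 20.7 CPM in the mutant clones, with a log2 fold change of 0.26 (SE 0.20, FDR 0.49). Counts per gene thus did not set the clones of a mutant apart at its own gene, and could not check the labels. The study had picked the mutant clones by genotyping PCR across each deletion. It also ran a western blot for NEIL1 protein in the Neil1 lines. For the Neil2 lines it measured Neil2 RNA by quantitative PCR with primers in the deleted exon.

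Pooled mutant mESCs differed from control mESCs in 856 of 15280 genes, 5.60% of those tested. Of these, 431 rose (2.82% of the genes tested) and 425 fell (2.78%). A gene was called where the quasi-likelihood test of edgeR gave a false discovery rate (FDR, adjusted after Benjamini and Hochberg) under 0.1 and the log2 fold change was beyond 0.5 in either direction. The median absolute log2 fold change was 0.83 among raised genes and 1.01 among lowered genes, and 136 raised and 215 lowered genes changed more than 2-fold. In 366 of the raised genes all 6 mutant clones lay above all 3 controls, an arrangement found in 6.01% of the genes tested. In 297 of the lowered genes all 6 lay below, against 4.78% of the genes tested. Lowered genes were often scarce: 201 of them reached a mean log2 CPM of 2, against 344 of the raised genes.

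The number of calls depended on the controls. Without control clone #7 it rose to 1784 (696 raised and 1088 lowered), and without control #1 or control #4 it dropped to 205 and 139. It was 387 without Neil1 #7 and 373 without Neil2 #14, and 592 to 1031 without any other mutant clone. Of the 856 genes, 760 were called in the same direction without control #7. All 855 that could be tested without it kept their sign, as did all 856 without control #1 or without control #4. Each such fit reuses the remaining clones on which the genes were chosen, so a kept sign is largely fixed in advance.

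**Figure D2:**
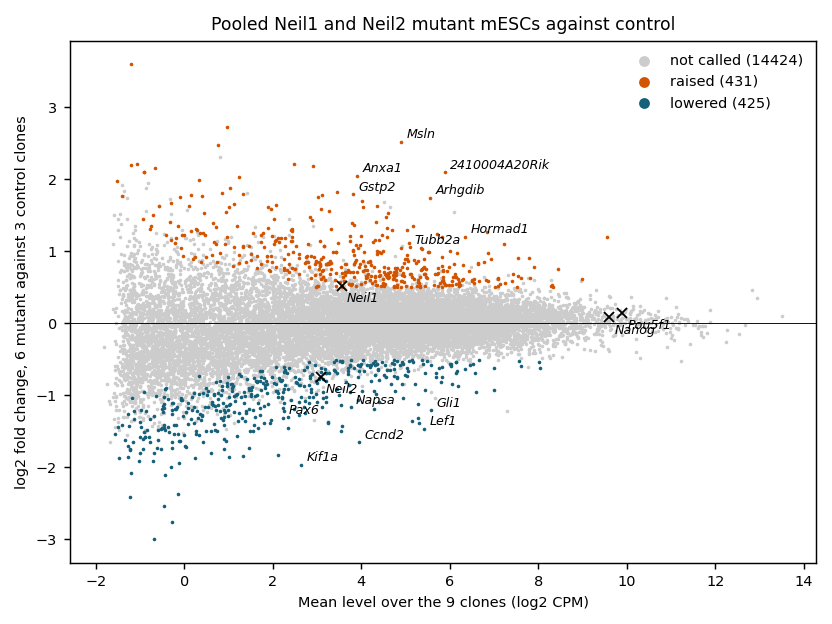
Each point is 1 of the 15280 autosomal genes tested, with its mean level over the 9 clones (log2 CPM) on the horizontal axis and the log2 fold change of the 6 mutant against the 3 control clones on the vertical axis. Genes called raised (431) and lowered (425) are coloured, and Pou5f1, Nanog, Neil1 and Neil2 (crosses) are not called.

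The genes that rose most, among those whose mean log2 CPM reached 2 and whose mutant clones all lay above all controls, were led by Msln. Msln encodes mesothelin, a surface glycoprotein of mesothelial cells. It had 4.55, 6.76 and 10.3 CPM in the control clones and 24.1, 40.7 and 56.3 CPM (lowest, median and highest) in the mutant clones. Its log2 fold change was 2.52 (SE 0.29, FDR 0.00331), and it stayed between 2.27 and 2.87 in the 9 fits that each lacked 1 clone. Anxa1, a calcium-dependent phospholipid-binding protein, had 3.63, 4.90 and 6.07 CPM in the control clones and 12.7, 21.8 and 25.7 CPM in the mutant clones, a log2 fold change of 2.04 (SE 0.27, FDR 0.00551).

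Gstp2, a glutathione S-transferase, had 3.63, 4.75 and 7.55 CPM in the control clones and 14.0, 18.8 and 22.9 CPM in the mutant clones, a log2 fold change of 1.79 (SE 0.23, FDR 0.00536). It has a near-identical neighbour, Gstp1, so its counts may hold reads of the other copy. Arhgdib rose from 11.1 to 28.5 CPM in the control clones to 44.0 to 77.6 CPM in the mutant clones (log2 fold change 1.74, SE 0.27, FDR 0.01). The unnamed gene 2410004A20Rik had 12.4, 14.0 and 29.3 CPM in the control clones and 54.8, 78.6 and 105.1 CPM in the mutant clones (log2 fold change 2.1, SE 0.30, FDR 0.0078). It lies on chromosome 9, where Neil1 #11 had the lower median, and that clone had 61.9 CPM.

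The other 7 genes chosen by the size of their rise had log2 fold changes between 1.64 and 2.21. They were Aox3 (an aldehyde oxidase), Dcdc2a (a doublecortin-domain protein), Nefm (the medium neurofilament chain), Apom (apolipoprotein M), Dnajc5g (a DnaJ cochaperone), Rcsd1 (a binding partner of the actin-capping protein CapZ) and Gm5665. Aox3 and Dcdc2a were called in 7 of the 9 fits that left out a clone, Gm5665 in 8 and the other 4 in all 9. Ranked by p in place of size, Hormad1, Tubb2a and Msln led the raised genes. Tubb2a (ENSMUSG00000058672, chr13:34166170-34169877), a beta-tubulin chain, had 18.01, 18.5 and 22.9 CPM in the control clones and 38.3, 41.3 and 44.0 CPM in the mutant clones. Its log2 fold change of 1.06 (SE 0.11, FDR 0.00198) came with a narrow spread, since the 6 mutant clones differed among themselves by less than their distance from any control.

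Ranked by p, Gli1, Lef1 and Napsa led the genes that fell. Gli1 (ENSMUSG00000025407, chr10:126766945-126778645), both a mediator and a standard target of Hedgehog signalling, had the smallest p of all genes. It had 69.5, 84.3 and 76.1 CPM in the control clones and 29.0, 33.4 and 37.8 CPM in the mutant clones, a log2 fold change of −1.21 (SE 0.11, FDR 0.000773). Lef1 (ENSMUSG00000027985, chr3:130813389-130927274), the transcription factor that binds β-catenin in Wnt signalling, had 78.7, 91.4 and 53.1 CPM in the control clones and 22.2, 27.3 and 31.5 CPM in the mutant clones. Its log2 fold change was −1.47 (SE 0.16, FDR 0.00198). Napsa, an aspartic protease, had 20.5, 22.9 and 20.8 CPM against 7.58, 9.21 and 12.7 CPM, a log2 fold change of −1.17 (SE 0.15, FDR 0.00536). In all 3 genes every mutant clone lay below every control, and each was called in all 9 fits that left out a clone.

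Ccnd2, a D-type cyclin that drives entry into the cell cycle, had 30.1, 26.0 and 28.8 CPM in the control clones and 6.64, 7.68 and 14.0 CPM in the mutant clones, a log2 fold change of −1.66 (SE 0.22, FDR 0.00552). Mycn, a growth-promoting transcription factor of early embryonic cells, had 134, 146 and 151 CPM in the control clones and 60.0, 71.6 and 87.4 CPM in the mutant clones, a log2 fold change of −0.96 (SE 0.13, FDR 0.00536). Kif1a, a kinesin that carries synaptic vesicle precursors, had 16.4, 14.7 and 5.55 CPM in the control clones and 2.35, 2.92 and 4.65 CPM in the mutant clones (log2 fold change −1.97, SE 0.30, FDR 0.01). Control #7 was the lowest control for Kif1a and close to the highest mutant clone, which was not so for Ccnd2 and Mycn.

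Among the 12 largest falls were also Pax6, Ncan, Foxn4, Jph4 and Actn3. Pax6, a regulator of neuroectoderm and eye, had 7.34, 7.82 and 7.87 CPM in the control clones and 2.03, 3.25 and 3.73 CPM in the mutant clones, a log2 fold change of −1.32 (SE 0.21, FDR 0.0114). Ncan (neurocan, a proteoglycan of brain matrix) changed by −1.37 (SE 0.27, FDR 0.0219), Foxn4 (a factor of retinal and spinal progenitors) by −1.38 (SE 0.28, FDR 0.0222) and Jph4 (a junctophilin of neurons) by −1.31 (SE 0.26, FDR 0.0219). Actn3, the alpha-actinin of fast muscle fibres, had 60.8, 73.7 and 59.0 CPM in the control clones and 19.4, 24.4 and 40.9 CPM in the mutant clones (log2 fold change −1.31, SE 0.19, FDR 0.0078). Vrtn, Ccno, Phlda2 and Sfi1 completed the 12, with log2 fold changes of −1.83, −1.43, −1.39 and −1.35. Of the 28 genes named so far by size or by p, Neil genes and Mycn left aside, 20 were called in all 9 fits that left out a clone. All 28 were called without control #7 and kept their sign in every such fit, which is largely fixed by choosing them on the same clones.

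**Figure D3:**
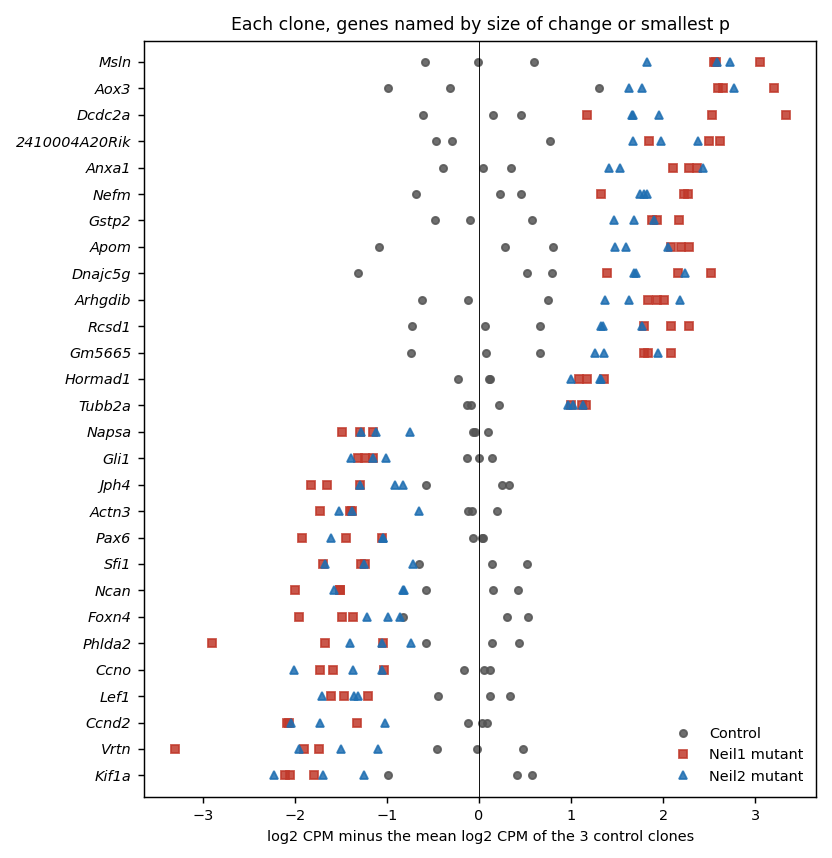
log2 CPM of each clone minus the mean log2 CPM of the 3 control clones, for the 28 genes named by size of change or by smallest p; circles are control, squares Neil1 mutant and triangles Neil2 mutant clones, with no averaging. Mutant clones lie on 1 side of all controls in every gene, which was a condition for the genes named by size. The Neil1 and Neil2 symbols overlap.

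Among 11 BER glycosylases tested, 0 were called, beside 5.60% of all genes. At that share short lists hold few calls, so a count of 0 says little. Their log2 fold changes ran from −0.74 (Neil2) to 0.51 (Neil1) with a median of 0.03, beside a median of −0.02 over all genes tested. The 2 glycosylases of highest level, Tdg and Ung, had log2 fold changes of 0.03 (SE 0.11) and −0.02 (SE 0.11). None of the 15 genes that act after the glycosylase was called, among them Parp1 (log2 fold change 0.12, SE 0.09) and Pcna (−0.12, SE 0.15), nor any of 50 genes of other repair pathways, where Ddb1 and Msh6 had log2 fold changes of 0.05 and −0.10. Of 12 genes of DNA methylation and its removal, 1 rose (8.33% called). That gene was Tet3, a dioxygenase that oxidises methylcytosine, with 15.6, 17.2 and 13.8 CPM in the control clones and 16.8, 22.3 and 29.0 CPM in the mutant clones. Its groups overlapped, and its log2 fold change of 0.53 (SE 0.17, FDR 0.0993) passed in 2 of the 9 fits that left out a clone, and not without control #7 (FDR 0.144).

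Targets of p53, the factor that answers DNA damage, were called in 3 of 44 tested, or 6.82% beside 5.60% of all genes. Of these, 1 rose and 2 fell, 9 of the 44 had a log2 fold change above 0, and the median was −0.13. The called genes were Zfp365 (log2 fold change −0.71, SE 0.11, FDR 0.0103), Trp73 (−0.66, SE 0.13, FDR 0.0222), which encodes the p53 relative p73, and Cd82 (0.93, SE 0.28, FDR 0.0941), a tetraspanin. Cd82 passed in 2 of the 9 fits that left out a clone and Zfp365 in all 9. Mdm2, which degrades p53 and is its standard target, had 214, 196 and 204 CPM in the control clones and 164, 185 and 198 CPM in the mutant clones (log2 fold change −0.17, SE 0.10, FDR 0.359). For Ccng1 the log2 fold change was −0.02 (SE 0.11, FDR 0.936). Sesn2, a stress-inducible regulator of growth, had 217, 226 and 206 CPM against 162, 179 and 197 CPM, with every mutant clone below every control, and a log2 fold change of −0.26 (SE 0.09, FDR 0.143) that did not pass. Of 15 genes of the BCL2 family, which controls the mitochondrial path of apoptosis, 0 were called, beside 5.60% of all genes. Bak1 had 52.0, 47.3 and 61.7 CPM against 62.0, 71.5 and 78.0 CPM, and its log2 fold change of 0.39 (SE 0.11, FDR 0.0742) passed the FDR but not the limit on size. For Bcl2, with under 1 CPM in every clone, it was −0.16 (SE 0.37), and for Mcl1 and Bax −0.13 and −0.05.

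Genes of the respiratory chain and of glycolysis had no called member, beside 5.60% called of all genes, a share at which short lists hold few calls. The 72 nuclear genes of the respiratory chain had 0 called members and a median log2 fold change of 0.08, with 53 above 0, beside 7325 of 15280 genes tested. Atp5b and Atp5a1, subunits of ATP synthase, had log2 fold changes of 0.06 (SE 0.09) and 0.01 (SE 0.10). Genes that maintain mitochondrial DNA (15 tested, median −0.14) and genes of glycolysis and hypoxia (22 tested, median −0.05) also had 0 called, with Lonp1 at −0.01, Ssbp1 at 0.27, Ldha at −0.03 and Aldoa at −0.12. Of 27 genes of the NRF2 and oxidative stress list, 1 rose (3.70% called): Me1, the cytosolic malic enzyme that makes NADPH. It had 47.4, 74.4 and 55.7 CPM in the control clones and 111, 152 and 171 CPM in the mutant clones, a log2 fold change of 1.27 (SE 0.18, FDR 0.00759), also on chromosome 9. The other 26 were not called, and the median of the list was −0.02.

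Of 26 genes of naive pluripotency, 1 was called (3.85%, beside 5.60% of all genes) and rose: Tcl1, an activator of AKT, with 52.4, 52.0 and 62.7 CPM in the control clones and 71.6, 82.1 and 99.3 CPM in the mutant clones (log2 fold change 0.58, SE 0.12, FDR 0.0239). Of 16 genes of formative and primed epiblast, 2 fell (12.5% called), Lef1 and Sox4 (log2 fold change −1.10, SE 0.20, FDR 0.0155), and the median was −0.21. In the Nodal pathway, which keeps the epiblast competent for germ layers, 2 of 16 rose and 1 fell (18.8% called). Furin, a protease that activates Nodal, and Lefty2, a Nodal antagonist and target, had log2 fold changes of 0.71 (SE 0.17, FDR 0.0478) and 0.98 (SE 0.28, FDR 0.0794). Skil, a repressor of SMAD signalling, changed by −0.62 (SE 0.13, FDR 0.0263), and by −0.46 without control #7, which is under the limit on size. Lefty2 overlapped between the groups and passed in 4 of the 9 fits that left out a clone.

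Genes of the 2-cell-like state, a rare state of mESC cultures in which genes of the early cleavage embryo are on, fell in 4 of 9 tested (44.4%, beside 5.60% of all genes), with a median log2 fold change of −0.75. All 4 were Zscan4 copies, which share nearly identical sequence, so their counts cannot be taken as separate measurements. Zscan4c had 42.0, 46.3 and 70.1 CPM in the control clones and 15.0, 31.9 and 35.9 CPM in the mutant clones, a log2 fold change of −0.85 (SE 0.23, FDR 0.0693). Control #7 was the highest control for all 4 copies, Zscan4c passed in 4 of the 9 fits that left out a clone. In bulk samples, fewer cells in a state and less RNA per cell cannot be told apart.

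Germline genes moved in both directions. Of 38 tested, 9 rose and 5 fell, or 36.8%, beside 5.60% of all genes, and the median log2 fold change was 0.06. The raised members were meiotic chromosome genes (Hormad1, Hormad2, Smc1b), the germ cell regulators Dazl and Sohlh2, the small-RNA pathway genes Tdrd12 and Rnf17, the chaperone gene Fkbp6 and Rpl10l, an intronless copy of a ribosomal protein gene that can exchange reads with its relatives. Hormad1 (ENSMUSG00000028109, chr3:95363599-95391593) had 46.4, 46.8 and 36.8 CPM in the control clones and 86.1, 101.8 and 110 CPM in the mutant clones, a log2 fold change of 1.20 (SE 0.12, FDR 0.00198). Smc1b, the meiotic cohesin subunit, had 35.3, 29.6 and 17.8 CPM in the control clones and 53.3, 64.5 and 72.7 CPM in the mutant clones (log2 fold change 1.23, SE 0.19, FDR 0.00967). For Sohlh2 the log2 fold change was 0.83 (SE 0.14, FDR 0.0122) and for Rpl10l 0.89 (SE 0.14, FDR 0.0111). These 4 genes separated the groups and were called in all 9 fits that left out a clone. The members that fell, Sycp2, Sohlh1, Tdrd1, Tdrd5 and Ddx25, had mean levels of 0.835 to 12.3 CPM in the control clones, against 12.3 to 77.6 CPM for the members that rose. Ddx25 lies on chromosome 9.

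Many germline genes carry the E-box CACGTG near their start, which MAX-containing repressor complexes bind in mESCs. The 250 bases before each RefSeq start (GRCm38.p6) were searched for these letters, which read the same on both strands, after the calls were known. Of the 38 germline genes tested, 35 had an entry, and 14 of these held the motif (40.0%), against 9.72% of the tested genes with an entry and 6.86% of all 27025 genes with one. By call, it was found in 2 of 8 raised, 2 of 5 lowered and 10 of 22 uncalled germline genes, a share of 25.0%, 40.0% and 45.5%. The stretches around it in the raised genes Hormad1 and Fkbp6 are shown 5′ to 3′ with the motif in capitals, at chr3:95559608-95559637 and chr3:95559645-95559674 on the plus strand and at chr5:135350128-135350157 and chr5:135350064-135350093 on the minus strand of GRCm38.p6.
Hormad1 E-box, far: caaagggtgcgcCACGTGccagtgacagtt
Hormad1 E-box, near: atgcgcactgcgCACGTGctgaccggagcg
Fkbp6 E-box, far: tgcgcctgccatCACGTGtgcagcgcgtgc
Fkbp6 E-box, near: gcgtctatcgatCACGTGccgtttctctcg

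Imprinted genes, which are expressed from 1 parental copy, were called in 6 of 38 tested (15.8%, beside 5.60% of all genes), 1 raised and 5 lowered, with a median of −0.09. Peg12 rose (log2 fold change 1.20, SE 0.20, FDR 0.0122) while its chromosome 7 neighbour Magel2 fell (−1.36, SE 0.28, FDR 0.0238), both paternally expressed. Phlda2, a maternally expressed brake on placental growth, had 87.4, 71.4 and 43.3 CPM in the control clones and 8.67, 27.8 and 38.6 CPM in the mutant clones, a log2 fold change of −1.39 (SE 0.34, FDR 0.0477). Meg3, a maternally expressed noncoding RNA, had 119, 255 and 185 CPM against 54.2, 98.2 and 125 CPM, with overlapping groups (log2 fold change −0.92, SE 0.25, FDR 0.0642). Rian, from the same cluster, and Gnas were the other members that fell.

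Among 25 cyclins, cyclin-dependent kinases, their inhibitors and close regulators, Ccnd2 and Mycn fell and Cdkn2a rose (12.0% called, beside 5.60% of all genes). Cdkn2a, which encodes the inhibitors p16 and p19ARF, had 9.24, 13.3 and 6.27 CPM in the control clones and 18.1, 24.8 and 32.9 CPM in the mutant clones, a log2 fold change of 1.40 (SE 0.24, FDR 0.0131), and passed in all 9 fits that left out a clone. In the immediate early list 1 of 18 rose, or 5.56%, close to the share of all genes. It was Fos (1.13, SE 0.35, FDR 0.0955), which passed in 1 of those 9 fits and not without control #7 (FDR 0.145). Of 19 genes of the interferon and nucleic acid sensing list, 15.8% were called. Oas1a (1.14, SE 0.29, FDR 0.0568) and Irf1 (0.54, SE 0.15, FDR 0.0745) rose and Dhx58 (−0.83, SE 0.24, FDR 0.0757) fell. They passed in 5, 4 and 3 of those 9 fits. For Wnt feedback targets 1 of 11 fell (9.09% called), which was Lef1, and 1 of the 11 lay above 0. Of 8 BMP targets, 1 fell (12.5% called), Id2 (−0.53, SE 0.16, FDR 0.0961), which overlapped between the groups and passed in 2 of those 9 fits.

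Lists for later fates were mostly near the detection limit, and members of the neuroectoderm list were called in 5 of 13 (38.5%, beside 5.60% of all genes). Besides Pax6 and Kif1a, Neurod1 and Sox11 fell (log2 fold changes −1.23, SE 0.24, FDR 0.0222 and −1.42, SE 0.28, FDR 0.0222), and Meis2 rose (1.61, SE 0.39, FDR 0.0452). Neurod1 and Sox11 were below 10 CPM in every clone, and in Neurod1 control #7 had 4.12 CPM against 9.32 and 9.23 CPM in the other controls. In the neural plate border and crest list 1 of 14 fell (7.14% called), Crabp1, a binding protein for retinoic acid (−1.04, SE 0.28, FDR 0.0665, groups overlapping, on chromosome 9). Pax3, the crest marker of the study, was at or below 0.152 CPM in every clone and was not tested. Of 18 Hox genes tested, 3 rose (16.7% called), Hoxd9, Hoxc4 and Hoxb4, all with at most 1.73 CPM in any clone, and 16 of the 18 lay above 0 with a median of 0.34. Hoxc4 overlapped between the groups and passed in 4 of the 9 fits that left out a clone, and Hoxb4 passed in 2 and not without control #7 (FDR 0.133). In the primitive streak and mesoderm list 1 of 15 fell (6.67% called), Vrtn, and the median was −0.37.

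Of the marker lists of other cell types, those of primitive endoderm and of neural cells had sums that did not overlap between the groups. Among single genes, all mutant clones lay above all controls in 6.01% of those tested and below in 4.78%. The 15 primitive endoderm markers summed to 453 to 560 CPM in control clones and 620 to 912 CPM in mutant clones, without overlap, most of it from Sparc, Col4a1 and Lama1, genes of basement membrane. Lama1 itself overlapped between the groups, with 89.2 to 119.7 CPM in control clones and 79.2 to 162.3 CPM in mutant clones. Of 12 tested, 3 rose (25.0% called, beside 5.60% of all genes). They were Sparc (log2 fold change 0.54, SE 0.10, FDR 0.0144), Col4a1 (0.91, SE 0.21, FDR 0.0411) and Hnf4a (0.74, SE 0.19, FDR 0.0601). Not all members moved this way: 8 of the 12 lay above 0, with a median of 0.17 and a lowest log2 fold change of −0.61. Dab2, for example, had 7.63, 10.4 and 12.7 CPM in the control clones and 3.44 to 16.7 CPM in the mutant clones. The defining factors Gata4, Gata6 and Sox17 stayed between 0.828 and 7.75 CPM in every clone and were not called. Neural markers summed to 15.0 to 21.2 CPM in control clones and 8.43 to 12.0 CPM in mutant clones, with Six3 at 0 in all clones. Most of this sum came from Pax6 and Neurod1, described above, and 6 of the 9 members found were below 1 CPM in every clone. Onecut2 had 1.08 to 2.47 CPM in control clones and 0.899 to 2.96 CPM in mutant clones. Fibroblast markers summed to 16.5 to 31.5 CPM against 14.2 to 22.4 CPM, and of the 4 tested Col1a2 (−2.11, SE 0.32, FDR 0.01) and Col1a1 (−1.02, SE 0.29, FDR 0.0736) fell. Col1a2 had at most 1.58 CPM in any clone, and 1 of the 4 lay above 0, at 0.67. Trophoblast markers (28.7 to 33.0 CPM against 27.2 to 43.7 CPM) and mesoderm markers (9.11 to 9.98 CPM against 7.71 to 11.4 CPM) overlapped. Of 6 trophoblast markers tested, 1 rose (16.7% called, beside 5.60% of all genes), Gata3 (1.14, SE 0.32, FDR 0.0754). Of 9 mesoderm markers tested, 0 were called, with Hand1 and Kdr at 0.25 and −0.09. The part of such cells in the called genes was not tested.

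Without control #7, where 11.5% of all genes were called, the number of called members rose in most of the lists in which it moved by more than 1.5 times. It went from 0 to 1 for BER glycosylases (Neil2), from 0 to 3 for other repair pathways and for the BCL2 family, and from 0 to 1 for the nuclear respiratory chain. For p53 targets it went from 3 to 7, for naive pluripotency from 1 to 4, for the NRF2 list from 1 to 3, for the interferon list from 3 to 5 and for the crest list from 1 to 3. The primitive streak and the Wnt list each went from 1 to 2. It dropped from 4 to 2 for the 2-cell-like genes and from 1 to 0 for the immediate early genes. Germline genes had 16 called members in place of 14, and imprinted genes 5 in place of 6.

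**Figure D4:**
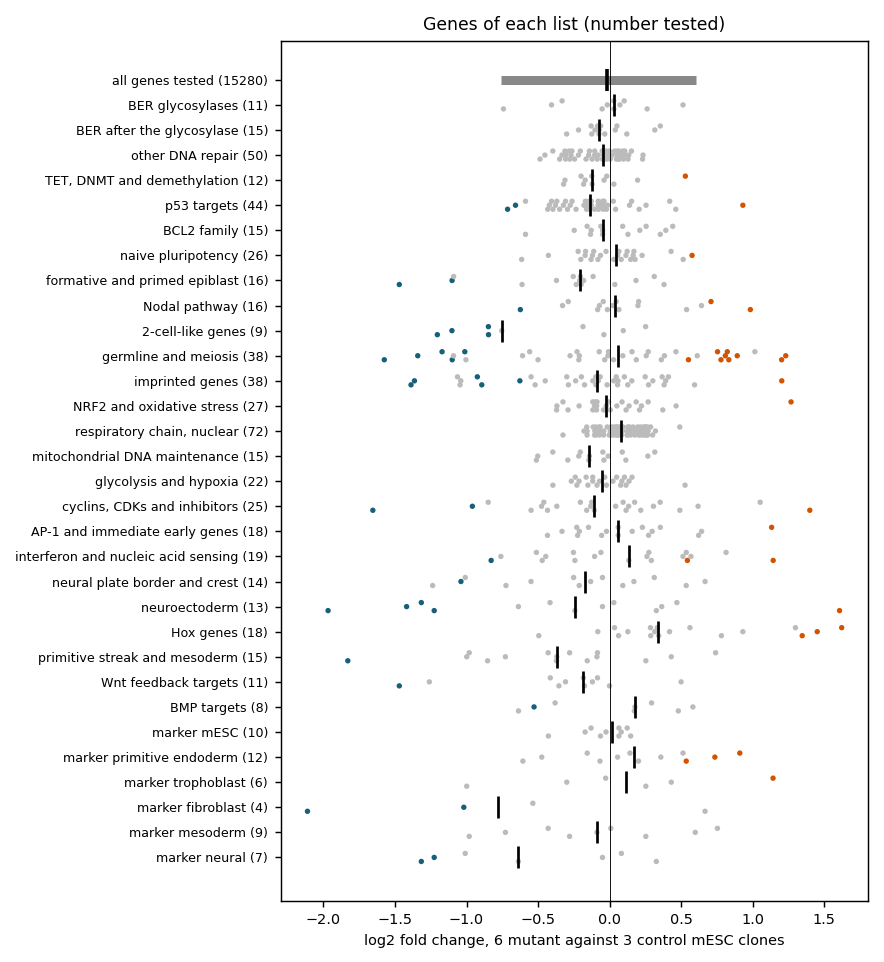
log2 fold change of each tested gene of every list in pooled mutant against control mESCs; orange points are called raised, blue points called lowered, grey points not called, and the black tick is the list's median. The grey bar gives the 5th to 95th percentile of all 15280 genes tested, from −0.76 to 0.60; lists of repair, respiratory chain and BCL2 genes lie within it, and the most coloured points, 14, are in the germline list.

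Each mutant was also set against the controls on its own. In a fit with 3 group means, Neil1 clones differed from the controls in 950 genes (6.22% of those tested) and Neil2 clones in 117 (0.766%). Both comparisons use the same 3 controls, so their values are given side by side only. Over the 431 genes raised in the pooled fit, the median log2 fold change was 0.89 for Neil1 and 0.75 for Neil2, and all 431 had a positive value for each. Over the 425 lowered genes the medians were −1.15 and −0.90, and all 425 were negative for each. Gli1 changed by −1.24 in Neil1 clones and −1.18 in Neil2 clones, Lef1 by −1.45 and −1.49, Hormad1 by 1.20 and 1.21, and Msln by 2.66 and 2.35. A sign shared by both is in part fixed by choosing genes on the pooled value.

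Compared with each other, Neil1 and Neil2 clones differed in 0 of 15280 genes (0.0%) by edgeR, with 687 at an unadjusted p under 0.05. DESeq2, which tested 24006 genes, also called 0, with 806 at such a p. The smallest FDR was 0.845, for Lyn. The median absolute log2 difference was 0.17 and the median SE 0.20, and 209 genes had a difference above 1. The count of Neil2 calls rested on single clones: it was 615 without control #7, 8 without control #1, 2 without control #4, 0 without Neil2 #14, 5 without Neil2 #11 and 46 without Neil1 #7. The count for Neil1 ran from 183 without control #4 to 2884 without control #7, and was 254 without control #1 and 233 without Neil1 #11.

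The genes called in mESCs were followed into EBs and EBs + RA of the same clones, grown for 8 days and, for EBs + RA, with 5 µM RA from day 4. These are other libraries, but of the same 9 clones, so levels that belong to a clone recur at each stage. Called genes made up 19.5% of those tested in EBs and 38.2% in EBs + RA. In EBs 415 of the 431 raised genes could be tested, and 157 of them were raised again (37.8%, beside 9.16% of all genes tested in EBs), while 49 were lowered (11.8%, beside 10.3%). Of 402 lowered genes, 92 were lowered in EBs (22.9%, beside 10.3%) and 43 were raised (10.7%, beside 9.16%). In EBs + RA, 225 of 409 raised genes were raised (55.0%, beside 20.4% of all genes tested) and 54 lowered (13.2%, beside 17.8%). Of the lowered genes that could be tested, 146 were lowered (37.2%, beside 17.8%) and 83 raised (21.2%, beside 20.4%). In both stages the share called in the mESC direction was above the share of all genes. The share called in the other direction was within 5 percentage points of that of all genes.

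In all 3 stages, 121 genes were raised, which is 28.1% of those raised in mESCs. Of the 15280 genes tested in mESCs, 4.99% were raised in both EBs and EBs + RA. Likewise, 60 genes were lowered in all 3 stages, 14.1% of those lowered in mESCs, beside 4.29% lowered in both later stages. By smallest p in mESCs, a choice made after seeing the values, the raised set was led by Hormad1 (log2 fold change 1.86 in EBs and 2.81 in EBs + RA), Gstp2 (2.04 and 2.54) and Liph (1.11 and 1.62), a lipase. The lowered set was led by Lef1 (−1.41 and −2.16), Col1a2 (−4.34 and −2.58) and the smooth muscle actin gene Acta2 (−6.78 and −3.48). Col1a2 and Acta2 were scarce in mESCs, with mean log2 CPM of −0.44 and −0.46. A mean log2 CPM of 2 was reached by 29 of the 60 lowered genes and by 102 of the 121 raised genes. Smc1b (1.42 and 1.81), Sohlh2 (1.25 and 1.21), Rpl10l (1.39 and 2.34) and Cdkn2a (1.26 and 1.18) also rose at both later stages.

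**Figure D5:**
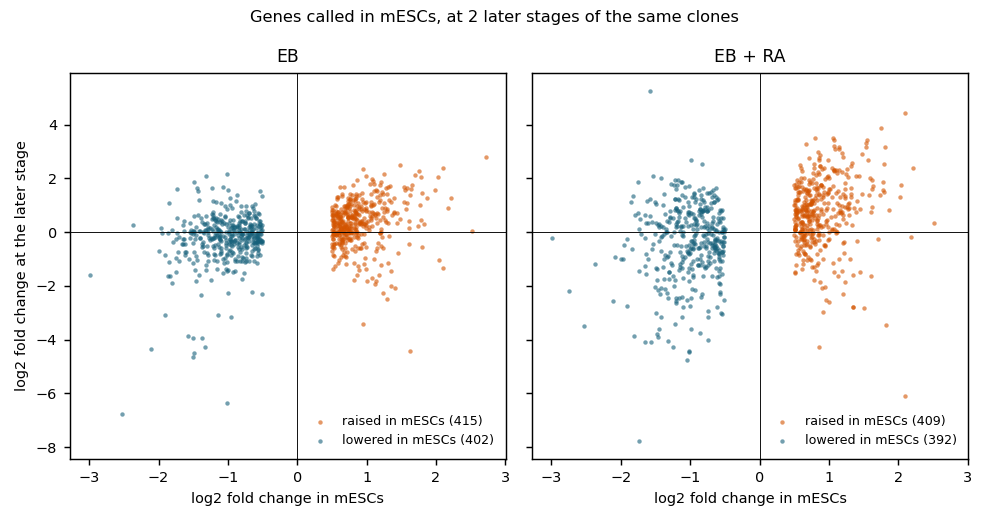
log2 fold change of the pooled mutants in mESCs (horizontal) against that in EBs (left) and EBs + RA (right) for genes raised (orange) or lowered (blue) in mESCs and tested at the later stage; each point is 1 gene. More raised genes lie above 0 than below at both stages, and the lowered genes spread to both sides of 0.

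Other genes changed differently after differentiation. The difference between the change in EBs and the change in mESCs, tested with the clone as a block, passed the FDR in 12.9% of 15920 genes, and that between EBs + RA and mESCs in 31.4% of 16595. Because this test uses the mESC libraries again, genes picked for a large mESC change tend to show a difference, and their counts are not read further. Gli1, lower in mutant mESCs, had a log2 fold change of 0.74 (FDR 0.0471) in EBs and −2.46 (FDR 0.000111) in EBs + RA. Pax6 had −1.32 in mESCs, 2.08 (FDR 0.00335) in EBs and −4.06 (FDR 9.97e-06) in EBs + RA. Pou5f1, not called in mESCs, was raised in both, by 0.81 (FDR 0.0102) in EBs and 2.16 (FDR 0.0039) in EBs + RA. Mdm2 and Sesn2 had log2 fold changes of 0.40 (FDR 0.0316) and 0.43 (FDR 0.0555) in EBs, under the limit on size, and were raised in EBs + RA, by 0.93 (FDR 0.000437) and 0.94 (FDR 0.000237) in EBs + RA.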

How the data were processed

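RNA of the mESC clones, and of EBs with or without RA made from them, was sequenced for 51 cycles. The authors aligned reads to NCBIM37 with TopHat 2.0.9 and summarised them with HTSeq-count 0.5.4, and the deposited values are raw counts per gene, without normalization. The kit does not keep strand, so overlapping antisense genes cannot be told apart. All 37991 identifiers were the same in every file and 37205 were placed by the GENCODE M1 annotation of NCBIM37. Rows that name no gene (reads of no feature, 6.18% to 7.72% of reads in the 9 mESC libraries, ambiguous and not uniquely aligned reads) stayed out of library sizes. Counts of autosomal genes were analysed with edgeR 4.0.16 (R 4.3.3, limma 3.58.1): filterByExpr, TMM, robust quasi-likelihood fit and test, Benjamini-Hochberg adjustment, 3 control against 6 mutant clones. Standard errors come from the same fit. The fit with 3 group means, EBs, EBs + RA and the interaction with stage (clone as block, since the labels name the clone at each stage) followed the same steps. A permutation test over single values ran over all 84 ways. Alternatives were DESeq2 1.42.0, RLE scaling, other filters and limits, Apex1 samples in the fit, the replicate number as a block and each clone left out. In a simulation of the pooled comparison over 15111 genes, edgeR recovered 75 of 100 genes changed 2-fold, 98 of 100 changed 4-fold, and called 17 unchanged genes. Counts were simulated for each gene on its own, and the scarcest genes were not among those changed. No simulated clone shifted many genes together, so the simulation does not cover the dependence on single controls described above. Lists and sums were made with Python 3.11.15.

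Named genes were the Neil genes; the 12 largest rises and falls among called genes whose mean log2 CPM reached 2 and whose groups do not overlap; the 3 smallest p in each direction; in each list up to 4 called members by p, or else the 2 of highest level; and 10 genes that the study measures. Further list members (Hormad2, Dazl, Tdrd12, Rnf17, Fkbp6, Sycp2, Sohlh1, Tdrd1, Tdrd5, Ddx25, Rian, Gnas, Meis2) and Liph, Acta2 and Lyn were named after their values were seen. Members and lists were chosen with earlier results of these data known. Apex1 samples entered only 1 alternative in mESCs; those of EBs and EBs + RA were not used here, and mitochondrial respiratory genes could not be tested, with 0 counts.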

Additional observations from a re-analysis of the deposited data

Results flagged for a closer look

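Among the 6 mutant clones, 4 of 45 measures had 1 clone far from the others, where chance gives about 1 in 20 groups. Actn3 had 40.9 CPM in Neil2 #1, against 19.4 to 24.7 CPM in the other mutant clones. Klf4 had 408.8 CPM in Neil1 #11, against 205.5 to 270.7 CPM in the others. The share of reads on no feature was 6.18% in Neil2 #14, against 6.74% to 7.01%, and the share of counts on chromosome X was 0.944% in Neil1 #11, against 3.77% to 4.58%.

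The pooled change differed between stages in 47 of 78 tests (edgeR interaction, FDR below 0.1), beside 12.9% of all genes for EBs and 31.4% for EBs + RA. The tests covered the Neil genes, the genes named by size or p and those that the study measures. Genes named only as members of a list were left out here, so their absence below does not mean that they did not differ. Each test uses the mESC libraries that chose most of the genes covered, so the count is not read further. In EBs minus mESCs the log2 differences of the 21 genes were Msln −2.43, Anxa1 −3.05, Nefm −1.55, Apom −1.46, Arhgdib −1.60, Kif1a 1.99, Ccnd2 1.27, Ccno 2.12, Phlda2 −0.89, Foxn4 1.83, Ncan 1.75, Sfi1 1.34, Pax6 3.33, Actn3 1.95, Gli1 1.92, Napsa 2.12, Pou5f1 0.65, Klf4 0.61, Mdm2 0.58, Sesn2 0.71 and Bak1 −0.63. In EBs + RA minus mESCs those of the 26 genes were Neil2 1.502, Neil3 −0.86, Msln −2.24, Dcdc2a −2.24, 2410004A20Rik 2.17, Nefm −5.34, Dnajc5g 2.11, Rcsd1 −1.98, Vrtn 3.15, Ccnd2 −2.27, Lef1 −0.70, Ccno 3.53, Phlda2 2.44, Foxn4 1.27, Sfi1 1.25, Pax6 −2.61, Hormad1 1.58, Gli1 −1.12, Napsa 2.34, Pou5f1 1.90, Nanog 1.77, Klf4 1.33, Ccng1 0.81, Mdm2 1.11, Sesn2 1.23 and Bcl2 −1.63.

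Chromosome X, left out of the comparisons, held a median of 4.42% of the counts in the mutant clones, against 3.23% to 3.33% in the control clones.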

How the results depend on the processing

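The pooled count of 856 calls was 407 at an FDR below 0.05, 1532 without control #7 and Neil1 #11 (chosen after seeing the data) and 139 to 1784 with 1 clone left out. The Neil1 count of 950 ran from 183 to 2884, the Neil2 count of 117 from 0 to 615 and that between Neil1 and Neil2 from 0 to 0. For the later stages the ranges were 2176 to 3642 in EBs, 4502 to 6504 in EBs + RA, and 908 to 2336 and 2767 to 6342 for their differences from mESCs. DESeq2 called 1252 genes in the pooled comparison and 524 for Neil2. With the replicate number as a block, 665 genes were called in the pooled comparison, 855 for Neil1 and 20 for Neil2; same-numbered clones had correlations of −0.453 to 0.412, so the numbers do not pair the clones. RLE scaling gave 852 pooled calls, and no filter 846. Each cause was not tested.

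Log2 fold changes close to 0 changed sign in 15 genes. With 1 clone left out, they ran from −0.0428 to 0.169 for Tdg, −0.0884 to 0.0523 for Ung, −0.25 to 0.011 for Pcna, −0.035 to 0.201 for Ddb1, −0.179 to 0.0678 for Msh6, −0.0749 to 0.00602 for Bax, −0.49 to 0.20 for Bcl2, −0.092 to 0.0381 for Ccng1, −0.0222 to 0.258 for Dppa5a, −0.37 to 0.49 for Kdr, −0.0783 to 0.157 for Klf4, −0.125 to 0.044 for Ldha, −0.0424 to 0.0275 for Lonp1, −0.112 to 0.173 for Tdgf1 and −0.0422 to 0.123 for Atp5a1. Without control #7 and Neil1 #11 they were 0.0561 for Ung, 0.0612 for Pcna, 0.0689 for Msh6, 0.0387 for Ldha, −0.0584 for Tdgf1, 0.391 for Kdr and −0.189 for Klf4. Atp5a1 was −0.0031 with at least 10 counts in every sample, and Lonp1 was 0.0028 with no filter. The planned removal of chromosomes with a median beyond 0.3, taken over genes of at least 5 CPM, removed none and was not run. Over genes of at least 1 CPM the median of chromosome 9 in Neil1 #11 was −0.32, beyond that limit. The calls without chromosome 9 are given above.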
